A study of Mus musculus with 9 samples.

Results

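The genes described here build, trim and crosslink the extracellular matrix: the matrix metalloproteinases, their TIMP inhibitors, the ADAMTS proteases and the lysyl oxidases. They were chosen by name, as every protein-coding gene in the table called Mmp, Timp or Adamts followed by a number, together with Lox and Loxl1 to Loxl4. This gave 50 of the 37224 genes listed, made up of 22 Mmp, 4 Timp, 19 Adamts and 5 lysyl oxidase genes. A further symbol that fitted the name pattern, Mmp1a, is annotated as a polymorphic pseudogene and was left out. RNA sequencing counts were available for 3 kinds of C57BL/6 mouse cells, with 3 libraries each. iGABA cells were passage-0 embryonic fibroblasts driven toward GABAergic interneurons by added transcription factors (as known from the study and not from its labels), collected at day 14 of reprogramming after 2 days in fibroblast medium and a shift to neuronal medium, and sorted for GFP (replicates 4 to 6). GAD67 cells were primary interneurons of the E18.5 embryonic cortex, marked by GFP under GAD67 and sorted for it (replicates 7 to 9). MEF cells were primary fibroblasts of E13.5 embryos, passage 0, which were detached with trypsin and not sorted (replicates 1 to 3). The fibroblast labels also mention a move into neuronal inducing medium without saying whether it came before RNA extraction, so the medium behind the MEF values is uncertain. The iGABA sort keeps cells that carry the reporter and not all cells of the dish, and nothing states that the replicates came from separate cultures or litters. The p-values therefore measure the spread among these 9 libraries alone, part of which may be technical. The series set converted cells beside the fibroblasts they came from and beside cortical interneurons, and the same 3 comparisons are made here.

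As background, metalloproteinases are zinc enzymes made as inactive precursors, which cut collagens, laminins, growth factor carriers and cell-surface proteins. Some are secreted and others, the membrane-type enzymes, stay on the cell surface, while TIMPs bind the active site and block it. ADAMTS enzymes are secreted relatives that process procollagens and cut the large proteoglycans aggrecan, versican and brevican. Lysyl oxidases are copper enzymes that oxidise lysines of collagen and elastin so that the fibres become crosslinked. Fibroblasts are the main source of such enzymes in connective tissue. The matrix around neurons holds little fibrillar collagen and is rich in hyaluronan and proteoglycans, and neurons themselves make a subset of these proteases.

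Library totals ran from 27501521 to 38975523 counts, and where a gene had no count its level could still be up to 3 counts, or 0.0770 to 0.109 CPM (counts scaled to a common library total). Levels below are CPM on library sizes scaled by TMM, which corrects for differences in composition, and levels of different genes are compared only after division by exon length (CPM per kb). Replicates of a group differed by more than counting noise, with a chi-square per gene from 2.44 to 28.2, the highest between GAD67 replicates 8 and 9. Against MEF cells, markers of the labelled cell types followed the labels in both iGABA and GAD67 cells. Between iGABA and GAD67 cells, all 8 fibroblast markers were called higher in iGABA cells. Of the 8 neuron markers 2 were called higher and 6 lower there, beside 41.3% and 39.3% of all genes. The 8 fibroblast markers summed to 694 to 967 CPM in iGABA, 106 to 114 CPM in GAD67 and 64144 to 70568 CPM in MEF libraries, and the 8 neuron markers to 1314 to 1367 CPM in iGABA, 7951 to 8477 CPM in GAD67 and 68.0 to 73.2 CPM in MEF libraries. In these bulk samples fewer cells of a type and less RNA per cell cannot be told apart. The unsorted MEF libraries also held 563 to 606 CPM of 11 macrophage and other immune markers, against 11.1 to 13.4 CPM in iGABA libraries, where C1qa was at 0, and 6.92 to 8.64 CPM in GAD67 libraries. Summed markers of 2 unlabelled cell types were highest in iGABA libraries. The 7 oligodendrocyte lineage markers summed to 566 to 579 CPM in iGABA, 44.9 to 53.5 CPM in GAD67 and 398 to 424 CPM in MEF libraries. Of these, Pdgfra, also on the fibroblast list, averaged 152 CPM in iGABA cells and was called lower there than in MEF cells. Olig2 was at 0 in iGABA and in MEF cells. Most of the iGABA sum, and its excess over MEF cells, came from other markers on the list. The 6 epithelial markers summed to 31.5 to 33.6 CPM in iGABA, 0.480 to 0.822 CPM in GAD67 and 2.369 to 3.002 CPM in MEF libraries, mostly through Epcam (30.4 CPM on average in iGABA cells), with Krt14 at 0 in iGABA cells.

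The 50 genes took 0.190% ± 0.00450 of all counts in iGABA libraries, 0.0854% ± 0.00257 in GAD67 libraries and 1.05% ± 0.0166 in MEF libraries (SD, n = 3). Most of the families' abundant fibroblast transcripts were lower in both neuronal groups. A small set ran the other way: the membrane-type metalloproteinase genes Mmp15 and Mmp24 and the protease gene Adamts7 were higher in both iGABA and GAD67 cells, Adamts18 and Adamts20 were higher in iGABA cells than in MEF cells, and Mmp16 was higher in GAD67 cells than in MEF cells. Compared with GAD67 cells, iGABA cells had more transcript of all 5 lysyl oxidase genes and of Timp1, Timp2 and Timp3.

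A gene was called when edgeR's quasi-likelihood test, fitted to the 9 libraries together, gave an adjusted p (Benjamini-Hochberg over 18085 genes) under 0.05. Of the 50 genes, 41 had enough counts to be tested. In iGABA against MEF cells 5 of the 41 were called higher and 35 lower, and Mmp3 was not called. Over all tested genes 42.1% were called higher and 39.7% lower in that comparison, and the median log2 fold change was -3.53 over the 41 genes and 0.05 over all genes. In GAD67 against MEF cells 4 were called higher and 33 lower, beside 43.1% and 43.8% of all genes, and Mmp9, Mmp17, Adamts18 and Adamts19 were not called. The median there was -5.02 over the 41 genes and 0.00 over all genes. In iGABA against GAD67 cells 22 were called higher and 12 lower, beside 41.3% and 39.3% of all genes, and 7 were not called with all libraries (Mmp2, Mmp12, Mmp13, Mmp19, Adamts14, Adamts15 and Adamts17). The median was 0.98 over the 41 genes and 0.02 over all genes. The 3 comparisons share libraries, so each is given by its own values. Called with at least 2-fold difference were 4 higher and 30 lower genes in iGABA against MEF cells and 3 higher and 31 lower in GAD67 against MEF cells. In iGABA against GAD67 cells 19 were higher and 11 lower at that size. The shares of all genes at 2-fold were not counted. The percentages above have no fold minimum, so these counts cannot be read against them. Scaling by library size alone moved the median of all genes to 0.46 in iGABA against MEF, 0.22 in GAD67 against MEF and 0.22 in iGABA against GAD67 cells, so that differences below about these sizes hold relative to TMM scaling.

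**Figure D1:**
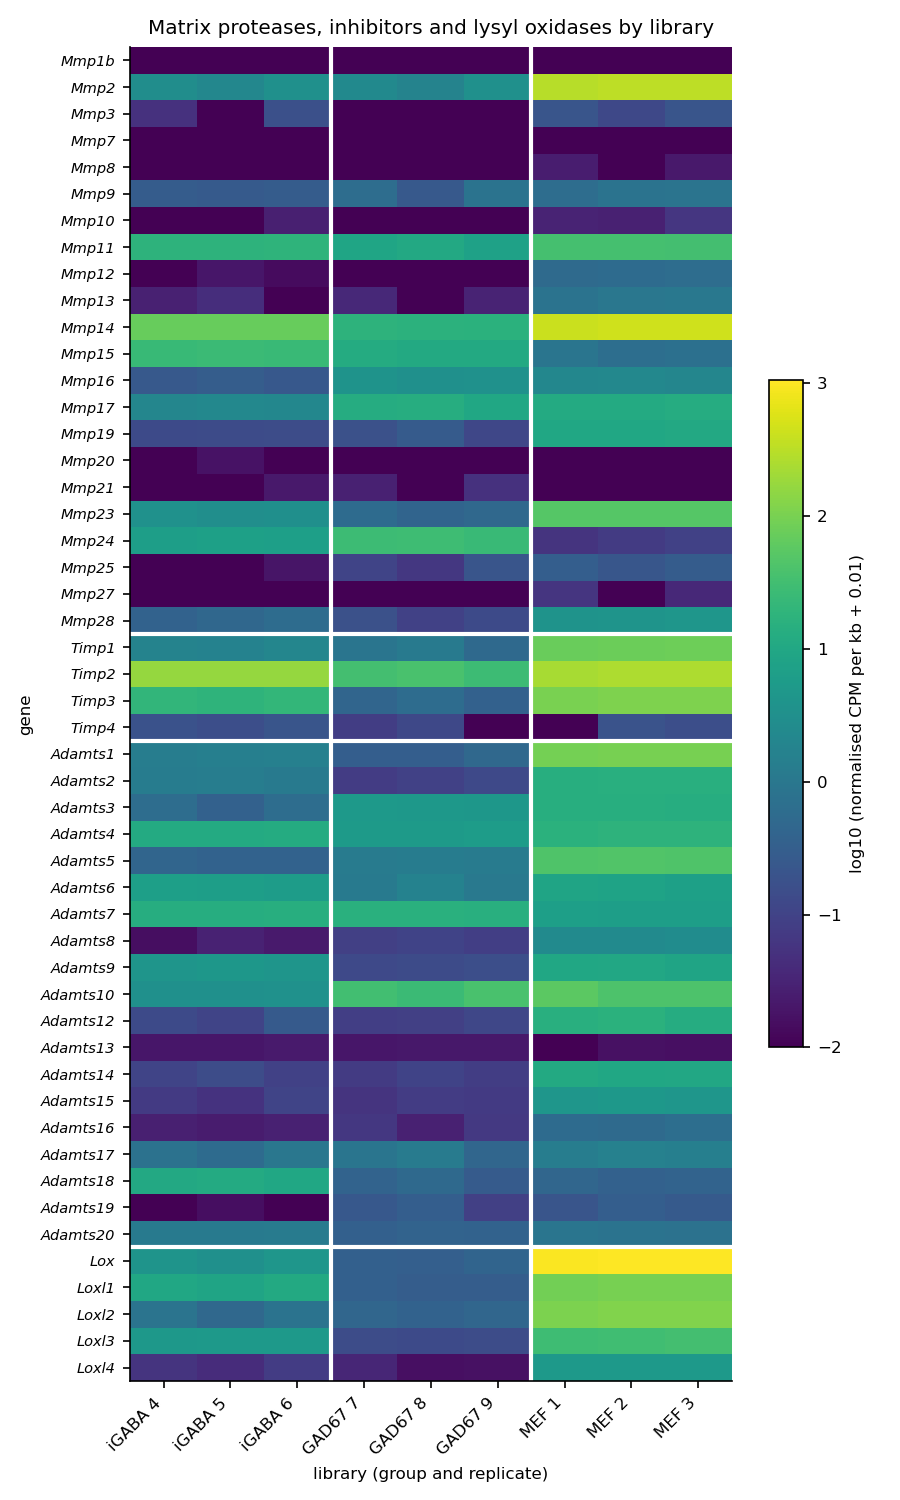
Each row is 1 of the 50 genes and each column 1 of the 9 libraries, and colour gives the length-scaled level as log10 of normalised CPM per kb plus 0.01. White lines part the 4 families and the 3 groups. Most rows are brightest in the 3 MEF columns, while Mmp15 and Mmp24 are dark there and bright in both neuronal groups.

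**Figure D2:**
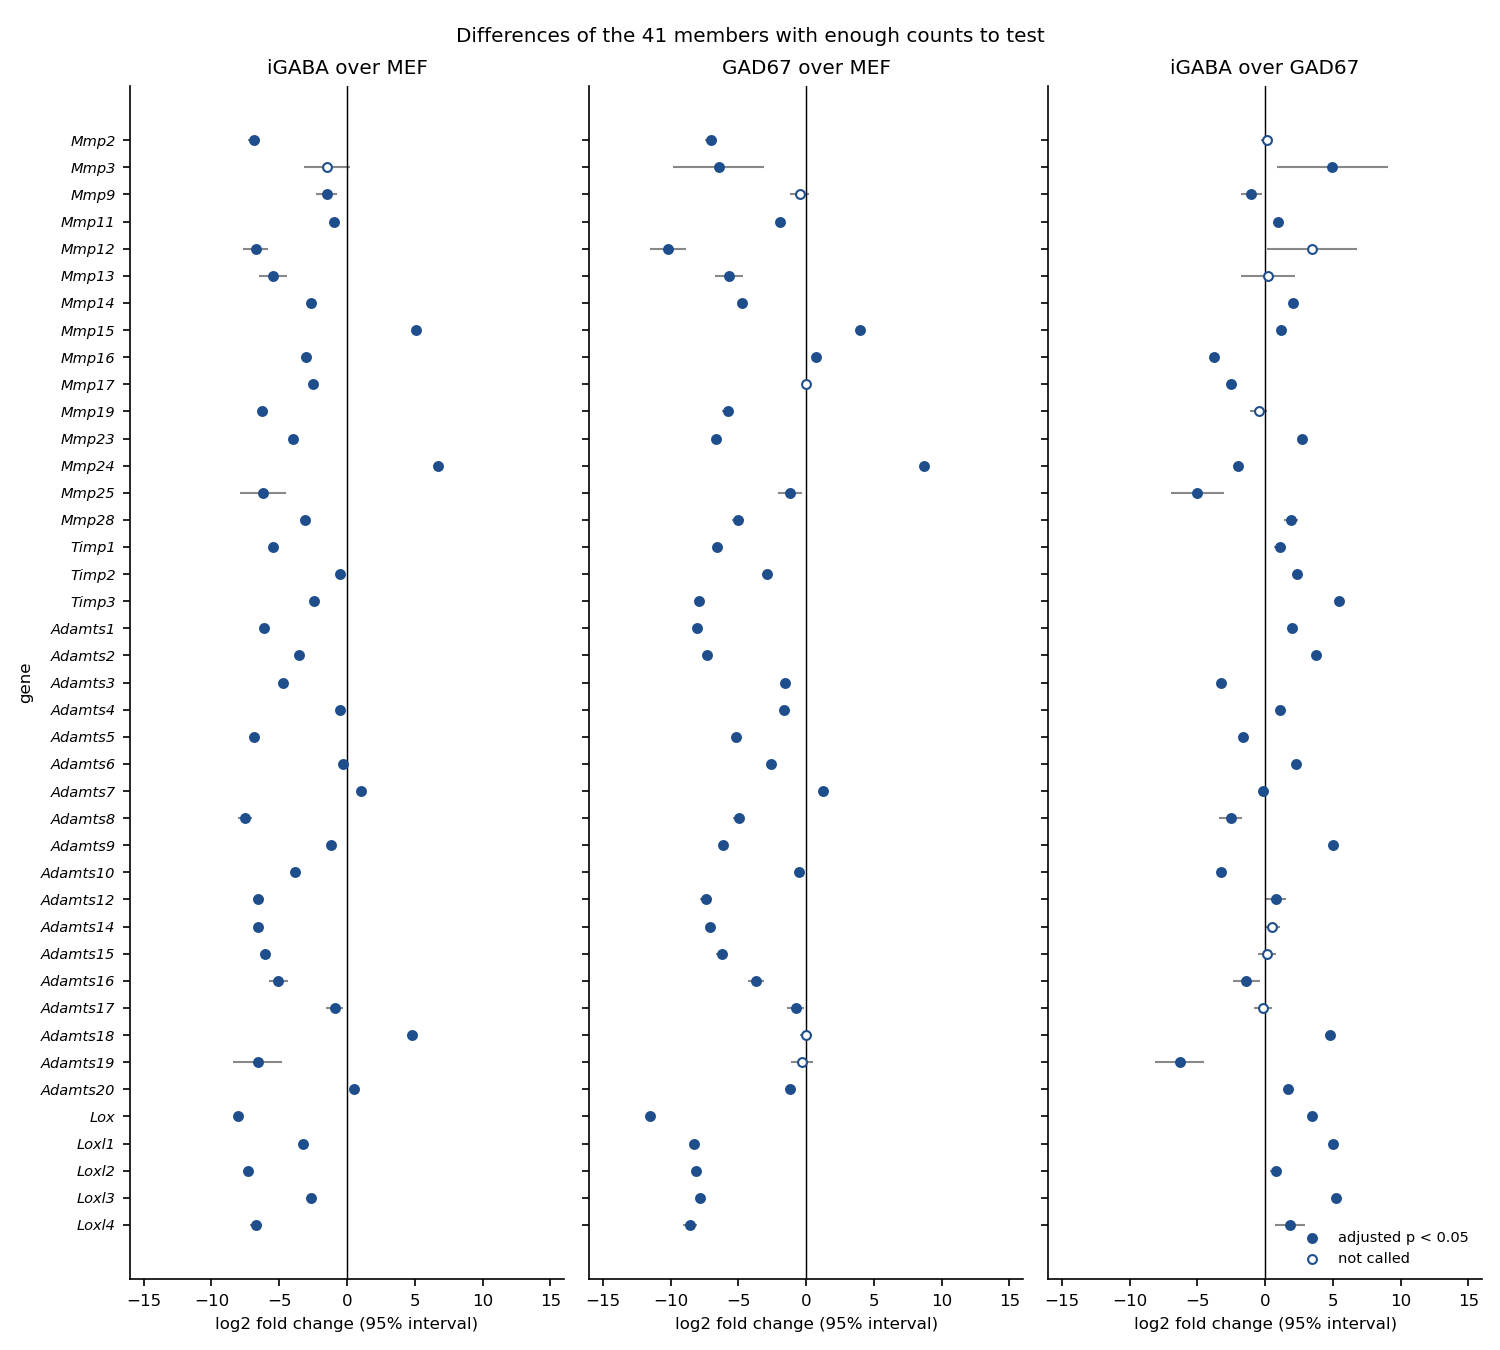
Points are log2 fold changes of the 41 tested genes with 95% intervals, in panels for iGABA over MEF, GAD67 over MEF and iGABA over GAD67, and filled points have an adjusted p under 0.05. In the first panel 35 filled points lie left of 0 and 5 right of it. For Mmp3 and Mmp12 the GAD67 group had no count, so their points in the GAD67 over MEF and iGABA over GAD67 panels depend on the model and are not sizes of a difference.

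Of the 22 Mmp genes, 9 lie close together on mm10 chromosome 9 between 7272514 and 7699585 (Mmp13, Mmp12, Mmp1b, Mmp3, Mmp10, Mmp8, Mmp27, Mmp20 and Mmp7). This stretch holds the collagenases, stromelysin-1 and stromelysin-2, macrophage elastase and matrilysin. All 9 together, without the left-out Mmp1a, had 5, 8 and 11 counts in the iGABA libraries and 3, 0 and 2 in the GAD67 libraries. The MEF libraries had 179, 208 and 255 counts. The neuronal groups were thus near the floor of detection and did not overlap with the MEF libraries, in which the cluster was itself scarce. Promoter sequences from RefSeq (GRCm38.p6, 250 bases before to 50 after the annotated start) were found for 32 of the 50 genes. The AP-1 site TGACTCA, or TGAGTCA on the other strand, lay in the promoters of 6 cluster genes and in those of 0 of the 23 other matched genes, beside 5.20% of all 32851 promoters. TATAAA on either strand lay in those of 8 cluster genes and of Adamts1 and Mmp21, beside 13.62% of all promoters. A match is a run of letters, not evidence of binding. The stretches below run from 110 bases before to 10 after the start, 5′ to 3′ on the gene's own strand, with AP-1 and TATAAA matches in capitals. The first 6 are the cluster genes with an AP-1 match. Mmp12 and Mmp7 each have another RefSeq promoter with neither match, and the promoter with the AP-1 match is printed for them. The other Mmp12 promoter, chr9:7344147-7344446, holds the start of the counted gene (7344381). In the printed Mmp12 stretch TATAAA lies after the annotated start. The last 3 are the genes with the largest log2 fold changes upward in iGABA against MEF cells, which hold neither match.
Mmp13: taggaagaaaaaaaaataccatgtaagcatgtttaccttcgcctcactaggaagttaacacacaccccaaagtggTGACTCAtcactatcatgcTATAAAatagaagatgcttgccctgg
Mmp12: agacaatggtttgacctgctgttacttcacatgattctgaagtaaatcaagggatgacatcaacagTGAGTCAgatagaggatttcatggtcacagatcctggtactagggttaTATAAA
Mmp1b: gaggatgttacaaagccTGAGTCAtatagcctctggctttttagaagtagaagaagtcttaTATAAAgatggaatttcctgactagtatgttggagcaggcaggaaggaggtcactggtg
Mmp3: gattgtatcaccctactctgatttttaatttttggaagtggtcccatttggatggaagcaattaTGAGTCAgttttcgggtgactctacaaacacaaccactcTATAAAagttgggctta
Mmp10: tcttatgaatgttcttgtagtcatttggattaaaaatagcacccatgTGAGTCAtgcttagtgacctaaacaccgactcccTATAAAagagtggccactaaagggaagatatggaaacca
Mmp7: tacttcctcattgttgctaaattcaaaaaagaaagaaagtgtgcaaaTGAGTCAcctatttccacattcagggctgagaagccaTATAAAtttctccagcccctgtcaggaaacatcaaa
Mmp15: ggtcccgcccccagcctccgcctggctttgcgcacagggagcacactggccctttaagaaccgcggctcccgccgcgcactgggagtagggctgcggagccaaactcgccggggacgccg
Mmp24: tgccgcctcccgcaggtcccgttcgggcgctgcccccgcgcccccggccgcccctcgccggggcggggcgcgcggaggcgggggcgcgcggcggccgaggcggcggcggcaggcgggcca
Adamts18: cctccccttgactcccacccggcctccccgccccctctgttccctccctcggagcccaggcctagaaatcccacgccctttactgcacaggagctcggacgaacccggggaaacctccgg
Their positions in GRCm38.p6 are chr9:7272404-7272523 for Mmp13, chr9:7347264-7347383 for Mmp12, chr9:7388017-7388136 on the minus strand for Mmp1b, chr9:7445712-7445831 for Mmp3, chr9:7502232-7502351 for Mmp10, chr9:7691980-7692099 for Mmp7, chr8:95352186-95352305 for Mmp15, chr2:155775232-155775351 for Mmp24 and chr8:113848830-113848949 on the minus strand for Adamts18.

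Within the cluster Mmp12, which encodes the elastase of macrophages, had 0, 0.0717 and 0.0313 CPM in iGABA libraries, no count in GAD67 libraries, and 3.84, 4.08 and 4.50 CPM in MEF libraries. It was called lower in iGABA cells (edgeR, log2 fold change -6.75 ± 0.41 SE, adjusted p = 3.81e-08), a value that ran to -7.89 without iGABA replicate 5 and -6.16 without iGABA replicate 4. In GAD67 cells it was at least 156-fold lower than in MEF cells, counted against 3 counts over the group. Between iGABA and GAD67 cells, with 4 and 0 counts, it was not called (adjusted p = 0.0525), except with scaling by library size alone (adjusted p = 0.0437) and without iGABA replicate 4 (adjusted p = 0.0159). All 11 macrophage and other immune markers were called lower in both neuronal groups than in MEF cells. The shares of all genes were 39.7% in iGABA and 43.8% in GAD67 cells. Between iGABA and GAD67 cells 1 of the 11 was called higher and 7 lower, beside 41.3% and 39.3% of all genes. Their sum was nevertheless higher in iGABA cells. The part of these markers in the Mmp12 differences was not tested. Mmp13, the main collagenase of rodents, stood at 0.0495, 0.0956 and 0 CPM in iGABA and 0.0766, 0 and 0.0565 CPM in GAD67 libraries, against 2.16, 2.53 and 2.66 CPM in MEF libraries. It was called lower in both neuronal groups, with log2 fold changes of -5.46 in iGABA cells (-6.30 without iGABA replicate 5) and -5.68 in GAD67 cells (-6.31 without GAD67 replicate 7). Cartilage and bone cells also make this enzyme. Their markers summed to 7.50 to 11.6 CPM in iGABA, 15.4 to 18.03 CPM in GAD67 and 400.1 to 454 CPM in MEF libraries. Single markers went both ways. Of 6 tested, 1 was called higher and 4 lower in iGABA against MEF cells, beside 42.1% and 39.7% of all genes. In GAD67 against MEF cells 2 were higher and 4 lower, beside 43.1% and 43.8% of all genes. The part of these markers in the Mmp13 differences was not tested. Stromelysin-1, Mmp3, had 12 counts over the iGABA libraries, 0 over the GAD67 libraries and 28 over the MEF libraries. Counted against 3 counts over the GAD67 group, it was at least 11.5-fold lower in GAD67 than in MEF cells. Counted the same way, its iGABA total was 3.93-fold higher than that of GAD67 cells. The iGABA libraries had 0.0742, 0 and 0.281 CPM, so the iGABA and GAD67 libraries overlapped. The iGABA over GAD67 call ended without iGABA replicate 6 (edgeR, adjusted p = 0.102) and without GAD67 replicate 7 (adjusted p = 0.0581), and the iGABA over MEF difference, not called with all libraries (adjusted p = 0.0904), was called without iGABA replicate 6 (adjusted p = 0.00866). The remaining cluster genes were too scarce to test. Mmp10 had 1 count over the iGABA, 0 over the GAD67 and 5 over the MEF libraries, Mmp27 and Mmp8 had no count in either neuronal group against 5 and 2 over the MEF libraries, Mmp20 had 1 count in an iGABA library alone, and Mmp1b and Mmp7 had none in any library.

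The membrane-type enzymes carried most of the Mmp transcript in the neuronal groups. Per kb of exon, the 6 of them made up 81.1% ± 0.789 of the Mmp sum in iGABA, 84.6% ± 0.466 in GAD67 and 51.9% ± 0.116 in MEF libraries (SD, n = 3). The gelatinases Mmp2 and Mmp9 made up 2.30% in iGABA, 3.69% in GAD67 and 36.8% in MEF libraries. The Mmp sum itself was 130.4 ± 1.40 CPM per kb in iGABA, 84.0 ± 5.45 in GAD67 and 876 ± 35.7 in MEF libraries.

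Mmp14 (ENSMUSG00000000957, chromosome 14, 54431604 to 54441258, plus strand), the membrane enzyme that cuts fibrillar collagen and activates the precursor of Mmp2, was the leading Mmp transcript per kb in iGABA and MEF libraries. Its levels were 184, 185 and 185 CPM in iGABA libraries and 44.9, 43.8 and 41.3 CPM in GAD67 libraries, against 1089, 1155 and 1177 CPM in MEF libraries. The 3 groups did not overlap, and iGABA cells lay between the others. By edgeR it fell by 2.63 on the log2 scale in iGABA cells (± 0.06 SE, adjusted p = 2.38e-13) and by 4.72 in GAD67 cells (adjusted p = 1.84e-15) relative to MEF cells, and was 4.26-fold higher in iGABA than in GAD67 cells (adjusted p = 1.92e-12). Its share of the Mmp sum per kb was 54.5% in iGABA, 19.9% in GAD67 and 50.1% in MEF libraries.

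Mmp15 (ENSMUSG00000031790, chromosome 8, 95352268 to 95374293, plus strand) encodes a second membrane-type enzyme, found in epithelia and other tissues. It had 106, 116 and 111 CPM in iGABA libraries and 54.2, 49.1 and 47.7 CPM in GAD67 libraries, against 3.77, 2.83 and 2.99 CPM in MEF libraries. Every iGABA library was above every GAD67 library, and both groups were far above MEF. The rise was 34.8-fold in iGABA (edgeR, log2 5.12 ± 0.10 SE, adjusted p = 6.68e-14) and 15.8-fold in GAD67 cells (adjusted p = 2.76e-13), and iGABA cells were 2.20-fold above GAD67 cells (adjusted p = 8.82e-09). The sums of epithelial and oligodendrocyte lineage markers given above were also highest in iGABA libraries, though single markers went both ways. In iGABA against MEF cells, 2 of 7 oligodendrocyte lineage markers were called higher and 3 lower. Of 4 tested epithelial markers 2 were called higher and 1 lower, beside 42.1% and 39.7% of all genes. The part of these markers in the Mmp15 difference was not tested. Mmp24 (ENSMUSG00000027612, chromosome 2, 155775342 to 155818366, plus strand), the membrane-type enzyme known from neurons, where it cuts N-cadherin, had the opposite order between the neuronal groups. It stood at 31.1, 33.5 and 32.1 CPM in iGABA and 129, 134 and 118 CPM in GAD67 libraries, against 0.220, 0.296 and 0.393 CPM in MEF libraries. That is 103-fold higher in iGABA (edgeR, log2 6.69 ± 0.13 SE, adjusted p = 8.55e-14) and 408-fold higher in GAD67 (log2 8.67 ± 0.12 SE, adjusted p = 2.32e-15) than in MEF cells. Between the neuronal groups it was 3.95-fold lower in iGABA than in GAD67 cells (adjusted p = 1.42e-11). Mmp24 shares 637 exon bases, 13.6% of its length, with BC029722 on the opposite strand, and since the strand setting of the counting is not given, reads of that stretch cannot be assigned.

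Mmp16, another membrane-type enzyme expressed in brain, was low in iGABA cells. It had 2.13, 2.51 and 2.03 CPM in iGABA and 32.3, 28.4 and 29.8 CPM in GAD67 libraries, against 17.8, 19.2 and 17.3 CPM in MEF libraries, with no overlap between any groups. It fell 8.10-fold in iGABA cells (edgeR, adjusted p = 2.08e-11) and rose 1.66-fold in GAD67 cells (adjusted p = 3.38e-06) relative to MEF cells. Mmp17, which is held to the membrane by a lipid anchor, showed 8.98, 9.44 and 9.35 CPM in iGABA and 56.9, 59.8 and 42.9 CPM in GAD67 libraries, against 51.3, 51.8 and 56.6 CPM in MEF libraries. GAD67 and MEF values overlapped (edgeR, log2 fold change -0.00, 95% interval -0.22 to 0.22, adjusted p = 0.991). Without GAD67 replicate 9, the lowest of its group, the same difference was 0.15 and was called (adjusted p = 0.0406). iGABA cells were 5.75-fold below MEF and 5.75-fold below GAD67 cells (adjusted p = 2.27e-10 and 2.23e-10). Mmp25, a lipid-anchored enzyme known from neutrophils, had 1 count over the iGABA, 44 over the GAD67 and 81 over the MEF libraries. This was 102-fold lower in iGABA than in MEF cells (exact 95% counting interval 17.8 to 4074) and 44.8-fold lower than in GAD67 cells (7.63 to 1808). The GAD67 over MEF call for Mmp25 (edgeR, log2 -1.17, adjusted p = 0.0165) ended without MEF replicate 1 or 3 or GAD67 replicate 7 or 8, with adjusted p between 0.0516 and 0.0635. Neutrophil markers summed to at most 0.302 CPM in any library.

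**Figure D3:**
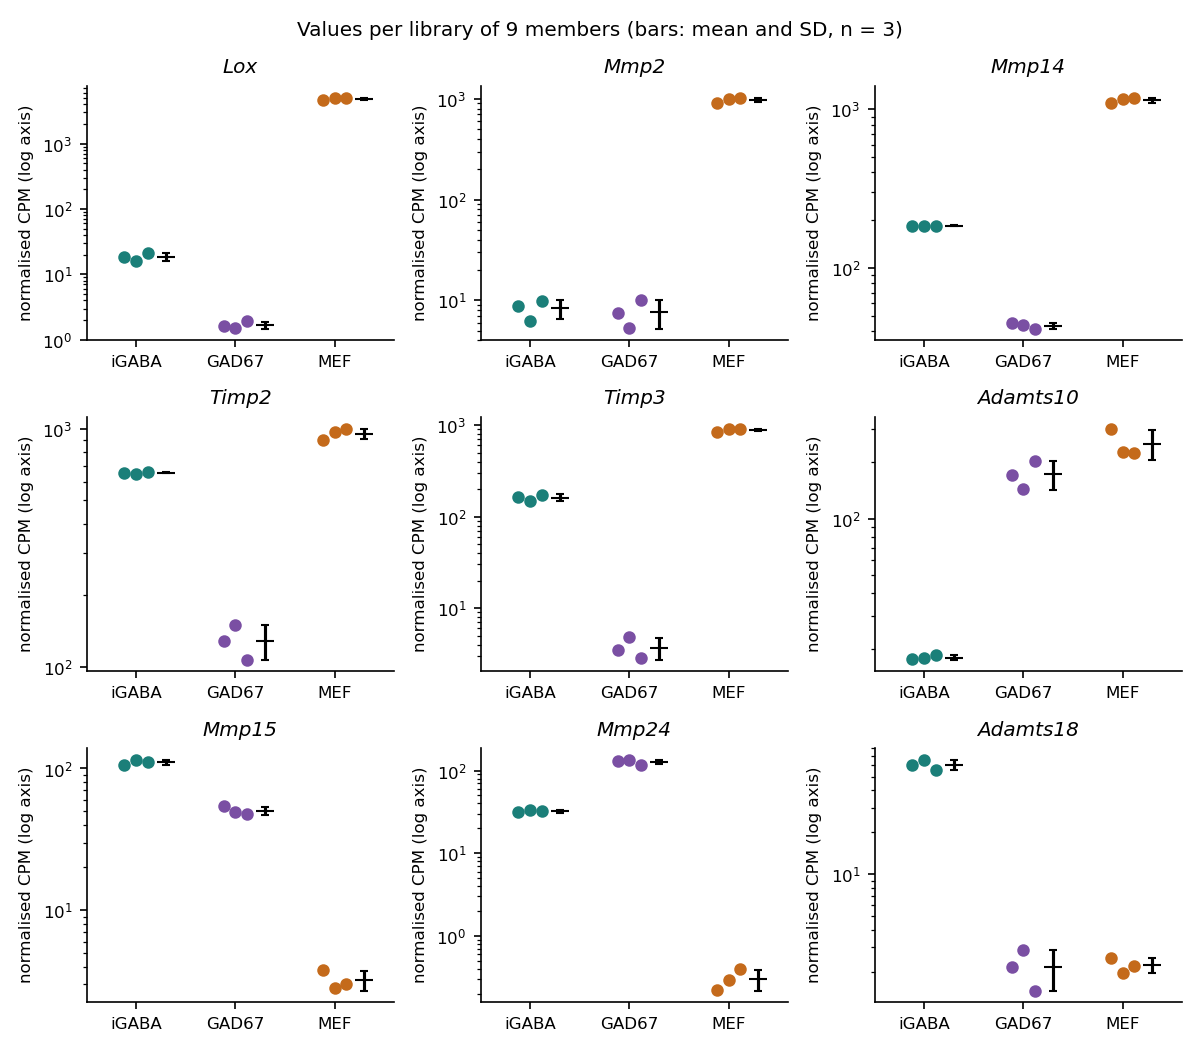
Points are normalised CPM per library on log axes that differ between panels and do not start at 0, for 9 genes in iGABA, GAD67 and MEF cells, with mean and SD (n = 3) drawn beside them. Lox, Mmp2, Mmp14, Timp2 and Timp3 are highest in MEF cells, Adamts10 is lowest in iGABA cells, Mmp15 and Mmp24 are lowest in MEF cells, and Adamts18 is high in iGABA cells alone.

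Among secreted metalloproteinases, the gelatinase Mmp2 (ENSMUSG00000031740, chromosome 8, 92827328 to 92853417, plus strand), which degrades denatured collagen and basement membrane, was far lower in both neuronal groups than in MEF cells. It had 8.71, 6.28 and 9.91 CPM in iGABA and 7.43, 5.28 and 10.03 CPM in GAD67 libraries, against 917, 987 and 1024 CPM in MEF libraries. The neuronal groups overlapped each other and lay far under MEF. The fall was 118-fold in iGABA (edgeR, log2 -6.89 ± 0.20 SE, adjusted p = 3.41e-12) and 129-fold in GAD67 cells (adjusted p = 1.62e-12). Between iGABA and GAD67 cells the log2 difference was 0.13 with a 95% interval of -0.31 to 0.56 (adjusted p = 0.573), and it took the other sign without iGABA replicate 6 (-0.01) or GAD67 replicate 8 (-0.08). The other gelatinase, Mmp9, was scarce in every group, at 0.965, 0.908 and 1.001 CPM in iGABA, 2.17, 0.848 and 2.88 CPM in GAD67 and 2.16, 2.90 and 3.02 CPM in MEF libraries. It was called lower in iGABA than in MEF cells (log2 -1.50, adjusted p = 0.00151) and lower in iGABA than in GAD67 cells (log2 -1.03, adjusted p = 0.0165). The iGABA over GAD67 call ended without GAD67 replicate 7 (adjusted p = 0.0510) or replicate 9 (adjusted p = 0.0696), and GAD67 against MEF, not called with all libraries (adjusted p = 0.192), was called without GAD67 replicate 9 (log2 -0.82, adjusted p = 0.0175). Among GAD67 libraries both gelatinases were lowest in replicate 8 and highest in replicate 9, and so were the summed markers of endothelial cells (29.2, 14.6 and 53.6 CPM in replicates 7, 8 and 9) and of mural cells (20.7, 10.5 and 37.1 CPM). Their part in the gelatinase values was not tested.

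Mmp11, stromelysin-3, leaves the cell already activated by furin. It had 45.6, 45.1 and 46.3 CPM in iGABA and 23.02, 27.5 and 18.98 CPM in GAD67 libraries, against 87.2, 88.5 and 84.9 CPM in MEF libraries, a 1.90-fold fall in iGABA (edgeR, adjusted p = 1.13e-06) and a 3.74-fold fall in GAD67 cells (adjusted p = 7.06e-10). These are the mildest called falls among the Mmp genes measured above 5 CPM in MEF cells, and Mmp11 made up 13.6% of the Mmp sum per kb in iGABA and 10.7% in GAD67 libraries, against 3.86% in MEF libraries. Mmp23, a small enzyme anchored by its N-terminus, had 7.92, 7.14 and 7.25 CPM in iGABA and 1.33, 0.928 and 1.16 CPM in GAD67 libraries, against 119, 116 and 116 CPM in MEF libraries. Mmp19 and Mmp28, both secreted, were lower than Mmp23 per kb in every group. Mmp19 stood at 0.421, 0.454 and 0.469 CPM in iGABA and 0.562, 0.928 and 0.367 CPM in GAD67 libraries, against 33.2, 33.1 and 36.2 CPM in MEF libraries. Mmp28 (epilysin) stood at 1.43, 1.79 and 2.28 CPM in iGABA and 0.639, 0.318 and 0.480 CPM in GAD67 libraries, against 14.8, 15.4 and 16.7 CPM in MEF libraries. In all 3 genes no neuronal library reached a MEF library, with log2 fold changes from -6.68 (Mmp23 in GAD67) to -3.11 (Mmp28 in iGABA) and edgeR adjusted p of at most 2.43e-09. Mmp23 and Mmp28 were also higher in iGABA than in GAD67 cells (log2 2.70 and 1.91, adjusted p = 8.13e-11 and 1.15e-05), and Mmp19 was not called there (log2 -0.48, adjusted p = 0.156), except without GAD67 replicate 9 (log2 -0.74, adjusted p = 0.0209). Mmp19 shares 789 exon bases (23.1% of its length) and Mmp28 465 with a gene on the opposite strand. Mmp21, known for a role in left-right patterning, had 1 count over the iGABA, 6 over the GAD67 and 0 over the MEF libraries and was not tested.

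**Figure D4:**
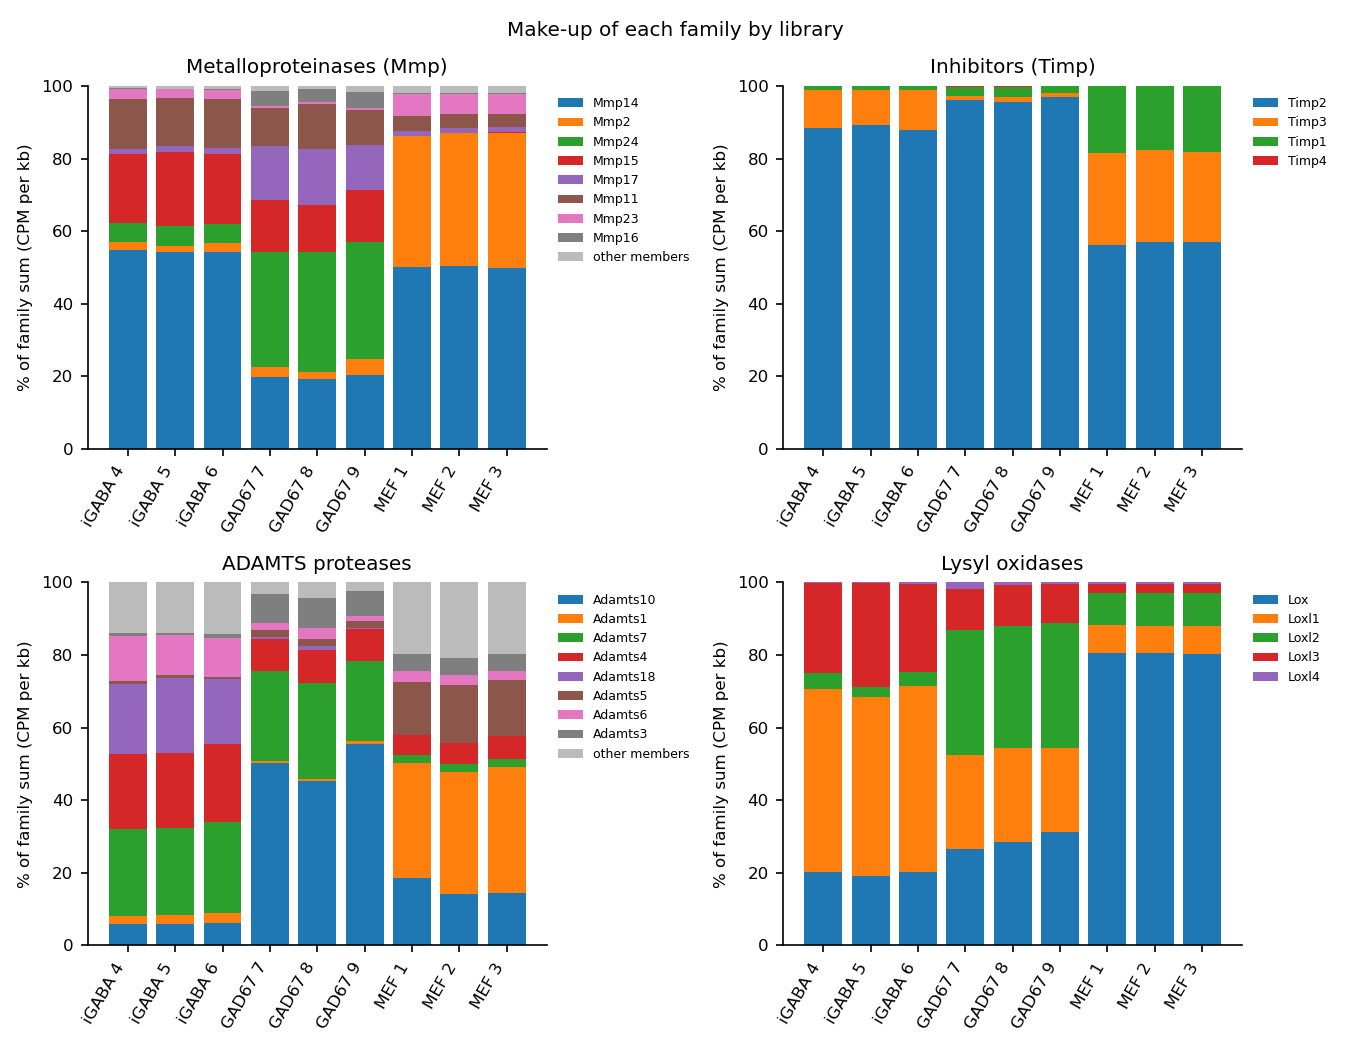
Stacked bars give each gene's percent of its family's summed CPM per kb, in each of the 9 libraries, with panels for the metalloproteinases, TIMP inhibitors, ADAMTS proteases and lysyl oxidases. Mmp2 is a wide band in MEF bars alone, Mmp24 is widest in GAD67 bars, Adamts10 takes about 50% of GAD67 bars, and Lox takes about 80% of MEF bars.

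The inhibitors fell less in iGABA than in GAD67 cells. Timp2 (ENSMUSG00000017466, chromosome 11, 118301069 to 118355740, minus strand), which blocks most metalloproteinases and also takes part in Mmp2 activation by Mmp14, had 655, 649 and 658 CPM in iGABA and 129, 150.2 and 107 CPM in GAD67 libraries, against 902, 968 and 995 CPM in MEF libraries. iGABA libraries lay below every MEF library by a small margin and far above every GAD67 library. The fall in iGABA cells was 1.46-fold (edgeR, log2 -0.55 ± 0.10 SE, adjusted p = 0.00016) and was not called with scaling by library size alone (log2 -0.13, adjusted p = 0.236). In GAD67 cells the fall was 7.42-fold (adjusted p = 1.21e-11), and iGABA cells were 5.08-fold above GAD67 cells (adjusted p = 1.48e-10). Timp3 (ENSMUSG00000020044, chromosome 10, 86300372 to 86349506, plus strand), the inhibitor that binds to matrix and also blocks ADAMTS and ADAM enzymes, showed 166, 147 and 173 CPM in iGABA and 3.50, 4.80 and 2.85 CPM in GAD67 libraries, against 849.5, 898 and 908 CPM in MEF libraries. The 3 groups were well apart. Timp3 fell 5.47-fold in iGABA (adjusted p = 1.66e-10) and 237-fold in GAD67 cells (adjusted p = 2.02e-14), and its 43.4-fold difference between iGABA and GAD67 cells (log2 5.44 ± 0.14 SE, adjusted p = 6.87e-13) was the highest of the 22 genes called higher there. Timp3 lies inside Syn3 on the opposite strand and shares 1733 exon bases, 21.3% of its length, with it. Syn3, a synapsin gene of neurons, had 9.76 CPM in iGABA, 29.6 CPM in GAD67 and 1.92 CPM in MEF cells on average. Since the strand setting of the counting is not given, reads of the shared stretch cannot be assigned, and their part in the Timp3 values was not tested.

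Timp1, which is secreted and weak against membrane-type enzymes, had 1.56, 1.48 and 1.78 CPM in iGABA and 0.766, 0.981 and 0.452 CPM in GAD67 libraries, against 67.1, 68.5 and 71.9 CPM in MEF libraries. It fell 43.3-fold in iGABA (edgeR, adjusted p = 5.02e-13) and 93.3-fold in GAD67 cells (adjusted p = 1.07e-13), and was 2.16-fold higher in iGABA than in GAD67 cells (adjusted p = 0.000237). Timp1 lies within the span of Syn1 on the opposite strand, which averaged 36.2 CPM in iGABA, 93.6 CPM in GAD67 and 1.58 CPM in MEF cells. Timp4, within the span of Syn2, averaged 0.248 CPM in iGABA, 0.0871 CPM in GAD67 and 0.158 CPM in MEF cells and was too scarce to test. Per kb, Timp2 made up 88.5% of the inhibitor sum in iGABA and 96.2% in GAD67 libraries, against 56.7% in MEF libraries, where Timp3 had 25.2% and Timp1 18.1%. The ratio of the inhibitor sum to the Mmp sum, both in CPM per kb, was 1.45 ± 0.0274 in iGABA, 0.408 ± 0.0501 in GAD67 and 0.493 ± 0.00130 in MEF libraries (SD, n = 3). No group overlapped another, and a two-sided exact permutation test gave p = 0.1 for each pair, the smallest that 3 against 3 libraries can give.

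The ADAMTS family summed to 56.0 ± 0.605 CPM per kb in iGABA and 62.7 ± 4.67 in GAD67 libraries, against 292 ± 5.51 in MEF libraries (SD, n = 3), and a different gene led it in each group. Adamts7 and Adamts4 led in iGABA cells, Adamts10 in GAD67 cells and Adamts1 in MEF cells. The 7 proteoglycan-cutting enzymes made up 34.0% ± 0.608 of the sum in iGABA, 12.4% ± 0.541 in GAD67 and 60.3% ± 2.52 in MEF libraries.

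Of these, Adamts1 and Adamts5, neighbours on chromosome 16 that cut aggrecan and versican, fell steeply. Adamts1 had 6.98, 7.79 and 7.91 CPM in iGABA and 1.66, 1.64 and 2.57 CPM in GAD67 libraries, against 499.6, 520.2 and 529 CPM in MEF libraries. Adamts5 had 3.39, 3.03 and 3.03 CPM in iGABA and 9.63, 10.2 and 9.69 CPM in GAD67 libraries, against 352, 374 and 354 CPM in MEF libraries. The order of the neuronal groups differed between these neighbours: Adamts1 was 3.87-fold higher and Adamts5 3.11-fold lower in iGABA than in GAD67 cells (edgeR, adjusted p = 1.38e-08 and 2.62e-10). Against MEF cells, the log2 fold changes of Adamts1 and Adamts5 were -6.10 and -6.83 in iGABA cells and -8.05 and -5.19 in GAD67 cells (edgeR, adjusted p of at most 2.44e-14). Adamts4, an aggrecanase also made in brain, changed little by comparison, with 55.5, 55.9 and 57.5 CPM in iGABA and 26.4, 25.7 and 28.3 CPM in GAD67 libraries, against 75.9, 82.8 and 85.7 CPM in MEF libraries. Its 1.45-fold fall in iGABA cells (adjusted p = 2.64e-06) was not called with scaling by library size alone (log2 -0.12, adjusted p = 0.0650), while its fall in GAD67 cells was 3.04-fold (adjusted p = 3.04e-11).

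Adamts9, a secreted versican-cutting enzyme, had 52.3, 55.5 and 51.6 CPM in iGABA and 1.51, 1.64 and 1.89 CPM in GAD67 libraries, against 121, 130.1 and 105 CPM in MEF libraries. It was 2.23-fold lower in iGABA than in MEF cells and 31.7-fold higher in iGABA than in GAD67 cells (edgeR, adjusted p = 1.21e-08 and 2.29e-13). A gene on the opposite strand, A730049H05Rik, shares 1381 of its exon bases. Its close relative Adamts20, known in mouse from a belted coat, had 10.4, 10.3 and 10.8 CPM in iGABA and 3.04, 3.55 and 3.33 CPM in GAD67 libraries, against 7.91, 7.37 and 7.07 CPM in MEF libraries. The iGABA libraries were the highest, by 1.41-fold over MEF (adjusted p = 0.000681) and 3.17-fold over GAD67 cells (adjusted p = 1.15e-08). Adamts8 and Adamts15 were near the floor in the neuronal groups. Adamts8 had 0.0247, 0.0956 and 0.0625 CPM in iGABA and 0.358, 0.424 and 0.339 CPM in GAD67 libraries, against 11.4, 11.7 and 12.5 CPM in MEF libraries, and Adamts15 had 0.371, 0.263 and 0.563 CPM in iGABA and 0.281, 0.398 and 0.367 CPM in GAD67 libraries, against 25.1, 27.6 and 25.8 CPM in MEF libraries. Both were called lower in both neuronal groups than in MEF cells, and between iGABA and GAD67 cells Adamts8 was called (log2 -2.54, adjusted p = 6.34e-05) and Adamts15 was not (log2 0.15, 95% interval -0.50 to 0.81).

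The 3 procollagen N-proteinases, which trim the amino end of fibrillar procollagens, split between the neuronal groups. Adamts2, the main enzyme of skin, had 11.7, 12.4 and 10.3 CPM in iGABA and 0.639, 0.795 and 1.13 CPM in GAD67 libraries, against 131, 134 and 135 CPM in MEF libraries. Adamts3, which in mouse also cleaves reelin in the brain, had 4.63, 2.68 and 4.72 CPM in iGABA and 38.98, 36.9 and 35.4 CPM in GAD67 libraries, against 108, 109 and 105 CPM in MEF libraries. Thus iGABA cells were 13.6-fold above GAD67 cells in Adamts2 and 9.35-fold below them in Adamts3 (edgeR, adjusted p = 2.94e-11 and 1.51e-10), and both genes fell in both groups relative to MEF cells. Adamts14 stood at 0.495, 0.717 and 0.438 CPM in iGABA and 0.332, 0.477 and 0.367 CPM in GAD67 libraries, against 57.2, 50.5 and 53.00 CPM in MEF libraries. It was called lower in both neuronal groups (log2 -6.57 in iGABA and -7.08 in GAD67 cells), and the difference between them was not called (log2 0.51, adjusted p = 0.0829), except with scaling by library size alone (adjusted p = 0.0260) and without iGABA replicate 6 (adjusted p = 0.0450).

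Adamts7 and Adamts12, relatives that cut cartilage oligomeric matrix protein, moved in opposite directions. Adamts7 (ENSMUSG00000032363, chromosome 9, 90162978 to 90208071, plus strand) had 85.1, 87.1 and 89.3 CPM in iGABA and 99.3, 98.4 and 94.9 CPM in GAD67 libraries, against 42.4, 40.9 and 41.9 CPM in MEF libraries. Both neuronal groups were clear of MEF, 2.09-fold higher in iGABA (edgeR, adjusted p = 3.41e-10) and 2.34-fold higher in GAD67 cells (adjusted p = 4.79e-11). The small difference between iGABA and GAD67 cells (log2 -0.16, adjusted p = 0.00766) took the other sign with scaling by library size alone (0.03) and was not called without iGABA replicate 4 (adjusted p = 0.0530). Adamts12 had 0.792, 0.597 and 1.59 CPM in iGABA and 0.460, 0.504 and 0.678 CPM in GAD67 libraries, against 90.6, 97.8 and 81.3 CPM in MEF libraries, a 94.1-fold fall in iGABA and a 164-fold fall in GAD67 cells. Its iGABA over GAD67 call (log2 0.80, adjusted p = 0.047) ended under DESeq2's size factors within edgeR, with the 2 groups alone, and without any of MEF replicates 1 to 3, GAD67 replicates 7 and 8 or iGABA replicate 6, the library with the highest value, where it was 0.35 (adjusted p = 0.238).

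Adamts10 (ENSMUSG00000024299, chromosome 17, 33524204 to 33553782, plus strand), an enzyme tied to fibrillin microfibrils and mutated in human Weill-Marchesani syndrome, was lower in iGABA cells than in GAD67 or MEF cells. It had 17.6, 17.8 and 18.54 CPM in iGABA and 172, 143 and 205 CPM in GAD67 libraries, against 303, 227 and 225 CPM in MEF libraries. iGABA libraries were far below the other groups, 13.99-fold under MEF (edgeR, adjusted p = 4.20e-11) and 9.63-fold under GAD67 cells (adjusted p = 1.69e-10), while GAD67 cells were 1.45-fold under MEF cells (adjusted p = 0.00137). Per kb it made up 5.90% of the ADAMTS sum in iGABA, 50.4% in GAD67 and 15.8% in MEF libraries. Its paralog Adamts6 showed the reverse, with 33.1, 30.7 and 28.5 CPM in iGABA and 5.57, 8.01 and 5.11 CPM in GAD67 libraries, against 40.8, 38.6 and 34.3 CPM in MEF libraries. Adamts6 was 4.93-fold higher in iGABA than in GAD67 cells (adjusted p = 4.63e-09) and 6.07-fold lower in GAD67 than in MEF cells (adjusted p = 8.64e-10). Its iGABA over MEF difference was small (log2 -0.30, adjusted p = 0.0394), took the other sign with scaling by library size alone (0.12), and was not called without MEF replicate 1 or 2 or iGABA replicate 5 or 6 (adjusted p between 0.0812 and 0.138).

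Adamts18 (ENSMUSG00000053399, chromosome 8, 113697126 to 113848615, minus strand), an enzyme whose substrates are less well defined, set iGABA cells apart from both other groups. It had 60.2, 66.1 and 55.8 CPM in iGABA and 2.17, 2.86 and 1.47 CPM in GAD67 libraries, against 2.53, 1.97 and 2.20 CPM in MEF libraries. iGABA libraries were the highest without overlap, 27.2-fold over MEF (edgeR, log2 4.77 ± 0.16 SE, adjusted p = 1.51e-11) and 27.9-fold over GAD67 cells (log2 4.80 ± 0.16 SE, adjusted p = 1.14e-11). GAD67 and MEF values overlapped (log2 -0.03, 95% interval -0.48 to 0.42, adjusted p = 0.887). In iGABA libraries Adamts18 made up 19.2% of the ADAMTS sum per kb. The same libraries had the highest sums of epithelial and oligodendrocyte lineage markers, of which single ones went both ways. The part of these markers in the Adamts18 difference was not tested. The related Adamts16 was scarce, at 0.115 CPM in iGABA, 0.304 CPM in GAD67 and 3.93 CPM in MEF cells on average, and its iGABA over GAD67 call (log2 -1.38, adjusted p = 0.0145) ended without GAD67 replicate 7 or 9 (adjusted p = 0.0604 and 0.0559). Adamts19 had 1 count over the iGABA, 109 over the GAD67 and 108 over the MEF libraries. That is 136-fold lower in iGABA than in MEF cells (exact 95% counting interval 23.9 to 5416) and 111-fold lower than in GAD67 cells (19.5 to 4421). Adamts17, a relative of Adamts10, had 5.57 ± 1.49 CPM in iGABA, 6.13 ± 2.90 CPM in GAD67 and 10.4 ± 0.987 CPM in MEF libraries (SD, n = 3). It was called lower in both neuronal groups (log2 -0.91 and -0.76, adjusted p = 0.0107 and 0.0242), but neither call passed with scaling by library size alone (adjusted p = 0.145 and 0.110), and the GAD67 call ended without MEF replicate 2 or 3 or GAD67 replicate 7 (adjusted p between 0.0524 and 0.0779). Between iGABA and GAD67 cells it was called, among the alternatives run, only without GAD67 replicate 9 (log2 -0.48, adjusted p = 0.0341). Adamts13, which trims von Willebrand factor in blood, had 6 counts over the iGABA, 6 over the GAD67 and 2 over the MEF libraries and was not tested.

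Of the 4 families the lysyl oxidases had the deepest falls, with a median log2 fold change of -6.74 in iGABA and -8.28 in GAD67 against MEF cells. All 5 genes were called lower in both neuronal groups than in MEF cells, beside 39.7% of all genes in iGABA and 43.8% in GAD67 cells. All 5 were called higher in iGABA than in GAD67 cells, beside 41.3% of all genes. The 5 genes took 0.00875% ± 0.000993 of counts in iGABA, 0.000554% ± 0.0000422 in GAD67 and 0.511% ± 0.0133 in MEF libraries (SD, n = 3). Lox, the founding enzyme that crosslinks collagen and elastin, had 18.6, 15.96 and 20.9 CPM in iGABA and 1.61, 1.51 and 1.92 CPM in GAD67 libraries, against 4629, 4920.5 and 5025 CPM in MEF libraries. No other of the 50 genes reached its MEF level, per library or per kb (1010.0 CPM per kb). It fell 263-fold in iGABA (edgeR, log2 -8.04 ± 0.12 SE, adjusted p = 8.88e-15) and 2892-fold in GAD67 cells (log2 -11.50 ± 0.14 SE, adjusted p = 9.99e-16), and was 10.99-fold higher in iGABA than in GAD67 cells (adjusted p = 2.46e-11).

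Loxl1, needed for elastic fibres, and Loxl3 kept more of their transcript in iGABA cells. Loxl1 had 32.4, 28.7 and 36.6 CPM in iGABA and 1.098, 0.954 and 0.988 CPM in GAD67 libraries, against 299, 323 and 329.9 CPM in MEF libraries. Loxl3 had 19.99, 20.9 and 21.8 CPM in iGABA and 0.588, 0.530 and 0.565 CPM in GAD67 libraries, against 123, 127 and 139.7 CPM in MEF libraries. In both genes the 3 groups were separate, with falls of 9.75-fold and 6.22-fold in iGABA against MEF cells and 31.9-fold and 36.98-fold higher levels in iGABA than in GAD67 cells (edgeR, adjusted p of at most 7.26e-13). Loxl3 shares 12.8% of its exon length with Htra2 on the opposite strand. Loxl2, which crosslinks basement membrane collagen, had 4.50, 2.56 and 4.28 CPM in iGABA and 2.30, 1.96 and 2.34 CPM in GAD67 libraries, against 565, 612 and 624 CPM in MEF libraries, so that its level in iGABA cells was 1.70-fold that in GAD67 cells (adjusted p = 0.00201) and 160.0-fold below that in MEF cells. Loxl4 was scarce outside MEF cells, with 0.198, 0.143 and 0.281 CPM in iGABA and 0.102, 0.0265 and 0.0282 CPM in GAD67 libraries, against 21.3, 22.1 and 22.3 CPM in MEF libraries. Its iGABA over GAD67 difference was 1.85 on the log2 scale (adjusted p = 0.00479) and 2.73 without GAD67 replicate 7, and its GAD67 over MEF difference was -8.59, or -9.46 without that library. Per kb, the family was led by Loxl1 in iGABA (50.4%), by Loxl2 in GAD67 (34.2%) and by Lox in MEF libraries (80.5%).

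Other genes of matrix assembly and turnover were set beside these families as counts of a list, to be read against the shares of all genes called (42.1% higher and 39.7% lower in iGABA against MEF, 43.1% and 43.8% in GAD67 against MEF, and 41.3% and 39.3% in iGABA against GAD67 cells). Of 25 enzymes and cofactors of procollagen maturation, 3 were called higher and 21 lower in iGABA than in MEF cells (median log2 -3.25), 1 higher and 23 lower in GAD67 than in MEF cells (-5.11), and 18 higher and 4 lower in iGABA than in GAD67 cells (1.59). The rises in iGABA against MEF cells included the ADAMTS-like genes Papln (log2 2.78) and Adamtsl2 (2.75), which resemble ADAMTS proteins but lack the protease domain, and the deepest falls were P4ha3, a prolyl hydroxylase subunit (-6.91), and Pcolce, an enhancer of procollagen C-proteinase (-6.80). In GAD67 cells the single rise was Tll2, a relative of that proteinase, with 0.858 CPM in GAD67 and 0.0345 CPM in MEF cells on average, and Pcolce (-10.27) and Adamtsl5 (-9.78) fell most. Between iGABA and GAD67 cells, Adamtsl5 (5.54) and the collagen chaperone Serpinh1 (5.43) were highest in iGABA cells, and Tll2 (-4.19) and Adamtsl1 (-2.95) were lowest.

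Of 20 matrix substrates, 3 were called higher and 17 lower in iGABA than in MEF cells (median log2 -5.95), 4 higher and 16 lower in GAD67 than in MEF cells (-7.00), and 14 higher and 5 lower in iGABA than in GAD67 cells (1.48). The rises were led by the proteoglycans of brain matrix. Bcan averaged 43.8 CPM in iGABA and 15.5 CPM in GAD67 cells, against 0.0954 CPM in MEF cells, and Ncan averaged 67.4 CPM in iGABA and 754 CPM in GAD67 cells, against 0.482 CPM in MEF cells. The deepest falls were Fn1 (log2 -8.06) and Col5a2 (-8.00) in iGABA, and Col1a2 (-11.31) and Dcn (-11.28) in GAD67 against MEF cells. Dcn (4.59) and Col1a2 (4.49) were also the most raised in iGABA over GAD67 cells, and Ncan (-3.48) and the versican gene Vcan (-3.27) the most lowered.

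Among 26 tested genes for other activators and inhibitors of matrix proteases, of 28 listed, 3 were called higher and 22 lower in iGABA than in MEF cells (median log2 -2.96), 3 higher and 22 lower in GAD67 than in MEF cells (-4.17), and 12 higher and 8 lower in iGABA than in GAD67 cells (0.24). In the last comparison these are 46.2% and 30.8% of the list, near the 41.3% and 39.3% of all genes. Spock1 and Spock2, which encode testicans, proteoglycans of brain, rose in both neuronal groups. On the log2 scale the rises were 3.03 and 2.91 in iGABA and 3.59 and 2.95 in GAD67 cells. Spock3, another testican gene on the list, was called lower in both groups (log2 -2.96 in iGABA and -2.34 in GAD67 cells against MEF). The deepest fall in iGABA cells was that of the cathepsin gene Ctss, a marker of macrophages, with 3 counts over the iGABA and 4462 over the MEF libraries (1871-fold lower, exact 95% counting interval 639.9 to 9078). The deepest in GAD67 cells was that of Serpinf1 (log2 -11.35). Tfpi2 had no count in either neuronal group, against 5.16 CPM in MEF cells. Between iGABA and GAD67 cells the membrane serine protease St14, known from epithelia, was higher (log2 7.11), as was Hpn, which averaged 0.0596 CPM in iGABA cells and had no count in GAD67 cells. The part of the epithelial markers in the St14 difference was not tested. Ctss, with 3 counts over the iGABA and 17 over the GAD67 libraries (5.77-fold lower, exact 95% counting interval 1.67 to 30.7), and Pcsk6 (log2 -1.38) were lower. Of 11 ADAM membrane proteases, 2 were called higher and 9 lower in iGABA than in MEF cells (median log2 -1.25), 2 higher and 9 lower in GAD67 than in MEF cells (-2.41), and 5 higher and 6 lower in iGABA than in GAD67 cells (-0.48), which in that comparison are 45.5% and 54.5% of the list beside 41.3% and 39.3% of all genes. The 2 that rose were in both cases Adam11 and Adam22, neuronal members that lack protease activity. Their rises were 2.02 and 1.29 in iGABA and 3.92 and 2.88 in GAD67 cells. Adam23, another neuronal member on the list, was among the 9 called lower against MEF cells in both groups. The deepest falls against MEF cells were Adam33 (-7.58) and Adam19 (-5.28) in iGABA, and Adam33 (-9.81) and Adam12 (-4.75) in GAD67 cells. Adam12 (3.83) and Adam15 (3.15) were the most raised in iGABA over GAD67 cells, and Adam19 (-2.49) and Adam11 (-1.90) the most lowered.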

How the data were processed

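RNA of 9 mouse samples in 3 groups of 3 was sequenced. Per the labels' protocols, RNA was purified on spin columns and dUTP strand-marked libraries were made. The authors deposited whole-number read counts per gene, not normalised. The tools were, per the submitters' processing notes, featureCounts, BWA (0.7.2) and DESeq (1.10.1), and the genome was mm10. Annotation release and strand setting are not given in the sources used, so genes that overlap another on the opposite strand are uncertain. Symbols came from GENCODE vM21, found for 35449 of 37224 genes (95.2%), and 11537 genes had no count.

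The members and gene lists were chosen with earlier results of these data known. Genes passed edgeR's filterByExpr (minimum count 10, minimum total 15), which left 18085. Counts were scaled by TMM and compared in R 4.3.3 with edgeR 4.0.16 (quasi-likelihood test), in a single fit to the 9 libraries without covariates, with Benjamini-Hochberg adjustment, and steps were tested on simulated data. The shared biological coefficient of variation was 7.91%. SE is the absolute log2 fold change divided by the square root of F. Genes above 5 CPM on average in a group and called at 2-fold or more somewhere are given per library, and listed genes that are not members by the 2 largest rises and falls. Where a group had no count, a fold is the least it could be if that group held 3 counts in all, and at 1 to 3 counts an exact 95% counting interval is given. Such intervals and floors cover counting error only, since PCR copies are not independent molecules. Promoters came from RefSeq (GRCm38.p6).

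Alternatives were other scalings, no filter, the 2 compared groups alone, DESeq2 1.42.0 and leaving out each library. Protein sequences were not used here.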

Additional observations from a re-analysis of the deposited data

How the results depend on the processing

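Under all of the alternatives listed, the counts of genes called higher and lower stayed within 1.5 times those reported in each of the 3 comparisons. DESeq2 gave the same direction and call for 123 of 123 gene differences, edgeR with DESeq2's size factors for 122, no low-count filter for 122, the 2 groups alone for 114 of 116 (7 could not be fitted), library size alone for 112 of 123, and the fits without a library for 1065 of 1107. With library size alone, Adamts6 in iGABA against MEF (0.12, against -0.30), Adamts18 and Mmp17 in GAD67 against MEF (0.19 and 0.22) and Adamts17 and Adamts7 in iGABA against GAD67 cells (0.042 and 0.032) took the other sign. Mmp17 in GAD67 against MEF cells was 0.029 without the filter and 0.028 with the 2 groups alone. Leaving out a library gave the other sign for differences that were not called with all 9: Adamts18 (-0.28 to 0.19), Adamts19 (-0.67 to 0.0908) and Mmp17 (-0.0905 to 0.15) in GAD67 against MEF, and Adamts15 (-0.13 to 0.40), Adamts17 (-0.48 to 0.22), Mmp13 (-0.62 to 0.85) and Mmp2 (-0.0807 to 0.36) in iGABA against GAD67 cells. The cause was not tested. For Mmp3, Mmp12, Mmp13, Mmp25, Adamts8, Adamts19 and Loxl4, which had few counts over a group's 3 libraries, the size of a difference is known less precisely. No paired analysis was possible because the replicate numbers run from 1 to 9 across the groups and none is shared.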

Other observations

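The promoters of the 9 Mmp genes close together on chromosome 9 differed in base composition from those of the other 23 genes that had a promoter in the RefSeq table (GRCm38.p6). Median GC content was 40.7% over the 11 cluster promoters and 65.4% over the 24 other promoters, beside 52.7% over all 32851 promoters of the table. The median number of CpG pairs in the same 300 bases was 1 in the cluster, 21 in the other genes and 7 over all promoters. Within the cluster the number ran from 0 to 7, and in the other genes from 2 to 44. These are descriptions of the sequences, set beside the counts near the floor that the cluster had in iGABA and GAD67 cells and its low counts in MEF cells.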
